A study of Homo sapiens with 6 samples.

Results

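The genes described here encode the proteins of the mitochondrial ribosome that carry the names MRPL and MRPS. They were chosen by symbol alone, as every row of the gene table whose name is MRPL or MRPS followed by a number and, for paralogs, a letter from A to C. This rule found 78 of the 28395 genes in the table, and it used no measured value. The RNA came from HCC827 cells, an established lung adenocarcinoma line with an activating deletion in EGFR. The cells were exposed for 24 h either to 1 μM erlotinib, an inhibitor of the EGFR kinase, or to DMSO, the solvent, and the study used them to ask how blocking EGFR changes the transcriptome. Poly(A) RNA was sequenced in 3 DMSO libraries, numbered 1 to 3, and 3 erlotinib libraries, numbered 4 to 6 in the table. Nothing in the labels says whether the libraries of a group came from separate cultures, so p-values measure the spread between these libraries, and results from 1 cell line and 1 time point cover no other line or time.

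The mitochondrial ribosome translates the few mRNAs that are made from mitochondrial DNA, which encode core subunits of the respiratory chain and of ATP synthase. Its rRNAs are transcribed in the mitochondrion, whereas all of its proteins are encoded in the nucleus, made in the cytosol and imported. Proteins of the large subunit (MRPL names, and by structure also MRPS18A and MRPS30) surround the site of peptide bond formation, and those of the small subunit (MRPS names) hold the mRNA and decode it. The unified nomenclature of ribosomal proteins sets those named after a bacterial counterpart apart from those named as specific to mitochondria. MRPS36 bears the name but has since been assigned to the 2-oxoglutarate dehydrogenase complex of the citric acid cycle.

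Most of these genes were lower with erlotinib. Of the 78 genes, 73 reached a mean signal of 10, where signal is the number of reads on a gene divided by the library's size factor, and were tested. Of the 73, 66 fell and 1 rose at an adjusted p under 0.05 (limma on log2(signal + 1), Benjamini-Hochberg over all 14215 genes tested), and 6 passed the threshold in neither direction. Over all genes tested, 35.4% were lower and 35.3% were higher by the same rule, so that most genes tested differed between the groups. Low genes took a smaller part in the falls, and among the 11068 genes whose mean signal reached 100 the shares were 42.2% lower and 33.6% higher. The median change of the 73 genes was -0.74 on the log2 scale, with quartiles at -0.94 and -0.52, beside a median of 0.017 over all genes tested. All 66 genes that fell had their 3 erlotinib values below their 3 DMSO values, a pattern that 36.9% of all genes tested showed. For 13 genes the fall was at least 1 log2 unit, which 10.8% of all genes tested reached. With total counts as the scale, 3 genes (MRPL12, MRPL36 and MRPS17) fell by that much, beside 8.08% of all genes tested.

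**Figure D1:**
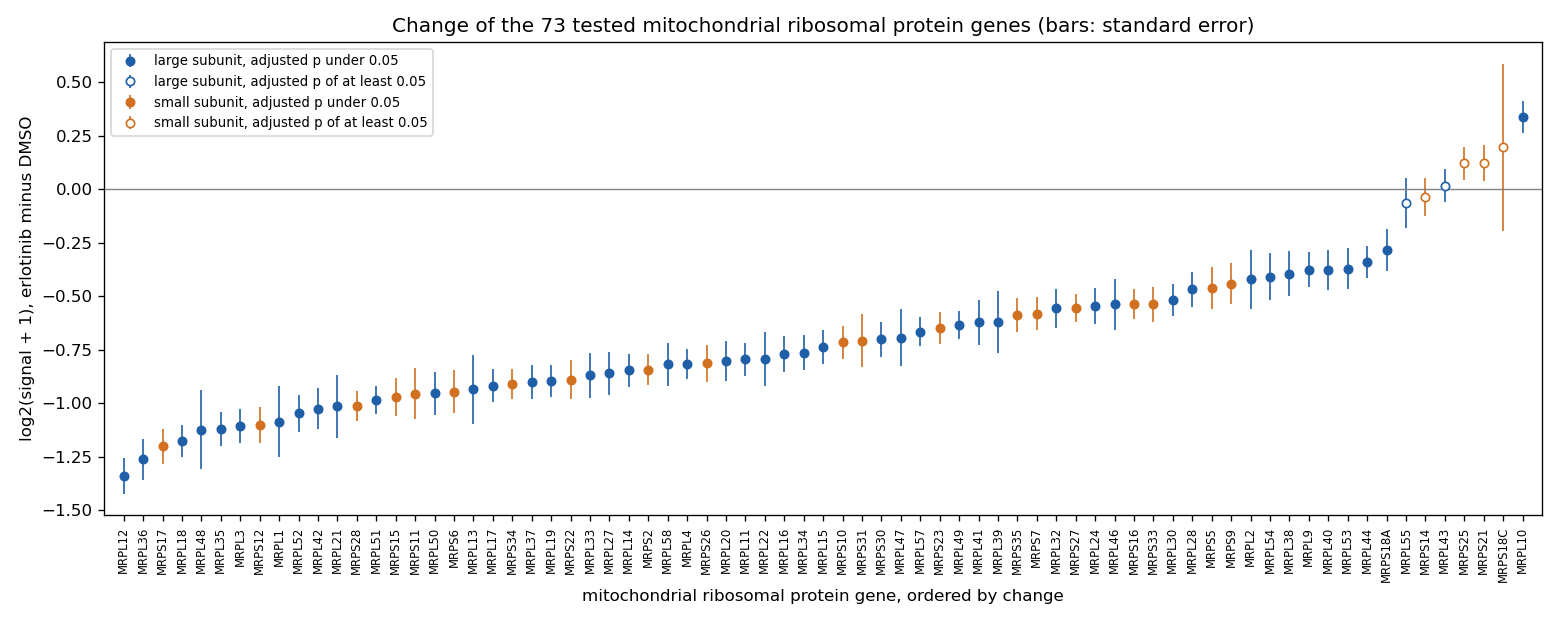
Change of each of the 73 tested mitochondrial ribosomal protein genes, ordered along the x axis from the largest fall to the largest rise, as the difference of log2(signal + 1) between erlotinib and DMSO (y axis; bars, standard error of the fit; 3 libraries a group). Filled points passed an adjusted p of 0.05 and open points did not: 66 filled points lie below 0, from MRPL12 at -1.34 to MRPS18A at -0.28, and MRPL10 at 0.34 is the filled point above it.

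The summed signal of the 78 genes showed the same split between the groups. It was 141323, 140326 and 136879 in the DMSO libraries and 83694.5, 84791.7 and 83242 in the erlotinib libraries. As a share of all reads on genes, which needs no size factor, the 78 genes took 0.597%, 0.613% and 0.604% with DMSO and 0.413%, 0.413% and 0.410% with erlotinib. Neither measure overlapped between the groups. In bulk RNA, a lower level in every cell and fewer cells with a high level cannot be told apart, and neither can a fall of these RNAs and a rise of all other RNA in the cell.

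The upstream sequences of 2 genes with the largest falls, MRPL12 and MRPL36, and of 2 genes that share a promoter region with an opposite neighbour, MRPS12 and MRPL43, are shown to place the values that follow. The latter pair was chosen after the values were seen, because member and neighbour differed. All are from RefSeq promoters of GRCh38.p14, 5′ to 3′ on the strand of the named gene, and end at the base before a start. For MRPL36 this is the start of its main GENCODE transcript, which lies inside the full RefSeq span of the gene given below. Capitals mark letters found by the motif search described below: an E-box and then a YY1 motif in MRPL36, an SP1 motif in MRPS12 and an ETS motif in MRPL43, while MRPL12 held none of those searched. The MRPL12 sequence is chr17:81703167-81703366 (+ strand), MRPL36 is chr5:1799838-1800037 (- strand), the 180 bases between MRPS12 and SARS2 are chr19:38930764-38930943 (+ strand), and the 45 bases between MRPL43 and TWNK are chr10:100987498-100987542 (- strand).
MRPL12: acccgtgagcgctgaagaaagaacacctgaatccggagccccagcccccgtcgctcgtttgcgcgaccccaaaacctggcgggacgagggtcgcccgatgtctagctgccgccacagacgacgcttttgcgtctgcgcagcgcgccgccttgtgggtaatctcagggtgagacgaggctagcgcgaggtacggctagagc
MRPL36: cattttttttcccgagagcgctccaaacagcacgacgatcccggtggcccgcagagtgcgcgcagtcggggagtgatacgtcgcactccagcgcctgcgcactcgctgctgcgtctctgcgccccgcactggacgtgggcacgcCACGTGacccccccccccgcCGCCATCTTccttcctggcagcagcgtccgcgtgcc
MRPS12: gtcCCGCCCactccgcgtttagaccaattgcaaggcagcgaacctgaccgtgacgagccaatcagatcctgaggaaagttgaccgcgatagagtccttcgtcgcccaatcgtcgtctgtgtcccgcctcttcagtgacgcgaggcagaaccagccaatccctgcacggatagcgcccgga
MRPL43: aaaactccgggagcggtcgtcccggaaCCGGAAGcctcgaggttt

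MRPL12, a protein of the flexible stalk where translation factors bind the large subunit, fell most. The gene lies on chromosome 17 (GRCh38, 81703367 to 81707517, + strand). Its signal was 3263, 2625 and 3006 in the DMSO libraries and 1122, 1141 and 1238 in the erlotinib libraries. The lowest DMSO value was thus more than every erlotinib value, and the means differed 2.54-fold (2965 ± 321 against 1167 ± 62.3, SD, n = 3 each). On the log2 scale MRPL12 fell by 1.34 (SE 0.083, limma adjusted p = 9.5e-12).

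MRPL36, a small protein with a bacterial homolog, followed with a fall of 1.26 (SE 0.10, limma adjusted p = 2.0e-10). Its gene lies on chromosome 5 (1798385 to 1801434, - strand) and overlaps the start of NDUFS6, which encodes a complex I subunit and fell by 1.38. MRPL36 had signals of 1081, 1125 and 978 with DMSO and of 423, 453 and 447 with erlotinib. The groups lay far apart and each varied little.

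MRPS17, a small subunit protein that binds the 12S rRNA, fell by 1.20 (SE 0.081, limma adjusted p = 3.3e-11). Its signal went from 4431, 5314 and 4197 with DMSO to 1985, 1938 and 2103 with erlotinib (chromosome 7, 55951877 to 55956500, + strand). Here the DMSO libraries differed more among themselves than the erlotinib libraries did, with SDs of 589 and 85.1.

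MRPL18, the homolog of the bacterial protein that carries 5S rRNA, fell by 1.18 (SE 0.074, limma adjusted p = 1.1e-11). It had 2762, 2592 and 2566 with DMSO and 1204, 1118 and 1181 with erlotinib (chromosome 6, 159789812 to 159798429, + strand). MRPL48, a protein classed as mitochondria-specific, was among the lowest members in level, with signals of 205, 189 and 186 against 87.7, 106 and 73.9. It fell by 1.12 with a larger standard error of 0.18 (limma adjusted p = 1.5e-05), and its groups did not overlap (chromosome 11, 73787874 to 73865133, + strand).

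The next falls were of similar size. MRPL35, a bacterial-type protein of the large subunit, fell by 1.12 (SE 0.08), from 1952, 1990.2 and 1799 with DMSO to 845, 874 and 915 with erlotinib (chromosome 2, 86199433 to 86213794, + strand). MRPL3, whose bacterial homolog reaches towards the peptidyl transferase centre, fell by 1.11 (SE 0.08), from 2635, 2964 and 2482 to 1186, 1306 and 1249.7 (chromosome 3, 131462212 to 131502971, - strand). MRPS12, the counterpart of the bacterial decoding-site protein S12, fell by 1.10 (SE 0.085), from 2715, 2252 and 2509.9 to 1142, 1260.2 and 1076 (chromosome 19, 38930944 to 38933168, + strand). In these 3 genes the lowest DMSO value again lay above the highest erlotinib value, and their limma adjusted p were 7.7e-11, 1.0e-10 and 2.8e-10. The order among the 8 genes from MRPL12 to MRPS12 is not firm, since neighbours in it differed by less than their standard errors.

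**Figure D2:**
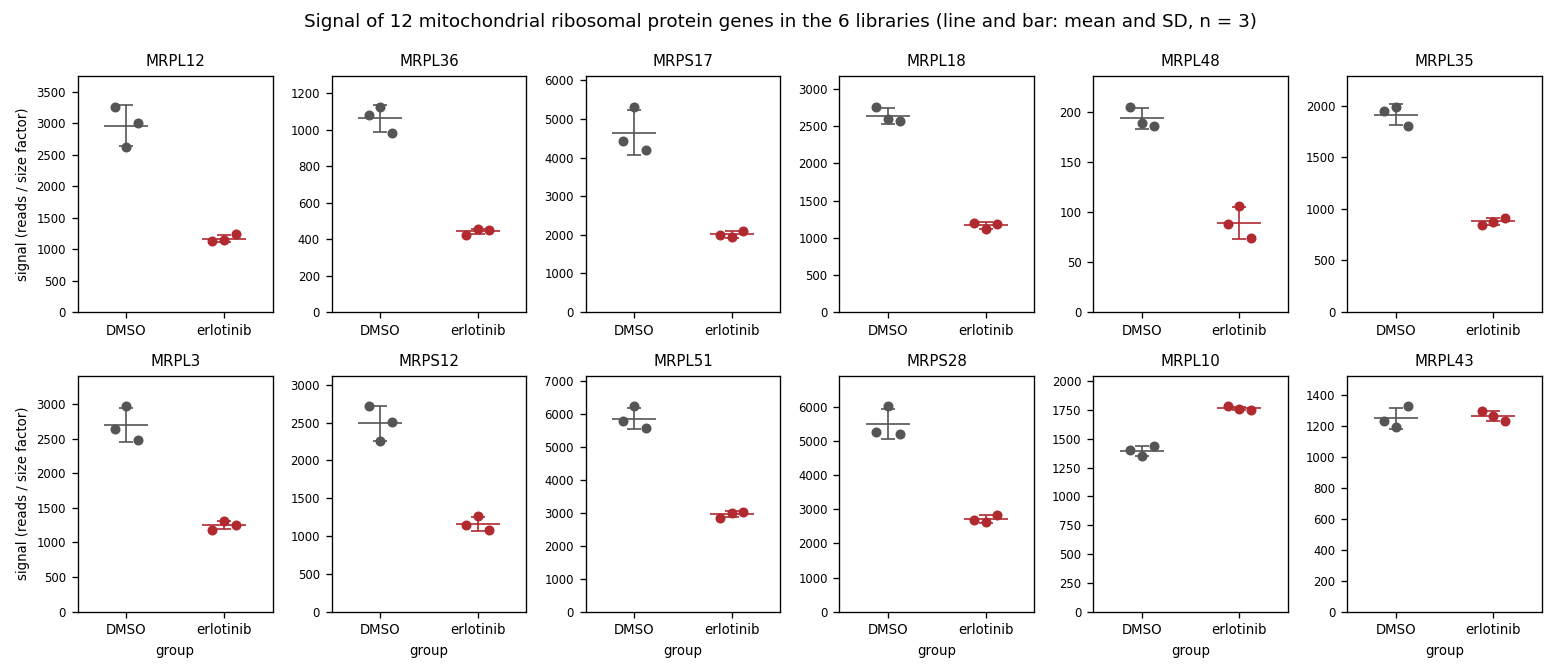
Signal (y axis, reads divided by the size factor, from 0) of 12 mitochondrial ribosomal protein genes in each of the 3 DMSO and 3 erlotinib libraries (points), with the group mean and SD (lines and bars). The 8 genes with the largest falls and the abundant MRPL51 and MRPS28 have all erlotinib points below the DMSO points, MRPL10 has them above, and the MRPL43 groups overlap.

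The most abundant members fell as well. Levels were compared between genes per kb of transcript, a scale that depends on the transcript length taken. MRPL42, with a transcript of 15557 bases, had a mean DMSO signal of 2513 but 162 per kb. The number of exons can also affect this scale, since Bowtie2 does not split reads over introns. By mean signal per kb with DMSO, MRPL51 (6533), MRPL37 (5963) and MRPL41 (4927) led the large subunit. MRPS28 (6566), MRPS34 (5326) and MRPS35 (2659) led the small subunit. With erlotinib the same quantity was 3298 for MRPL51, 3178 for MRPL37, 3156 for MRPL41, 3246 for MRPS28, 2829 for MRPS34 and 1761 for MRPS35. MRPL51 had library signals of 5779, 6233 and 5587 with DMSO and of 2856, 3004 and 3024 with erlotinib (log2 change -0.98, SE 0.067, limma adjusted p = 3.7e-11). MRPS28 had 5268, 6021 and 5219 with DMSO and 2701, 2618 and 2842 with erlotinib (log2 change -1.01, SE 0.071, limma adjusted p = 6.6e-11). MRPL41 varied most among these 6 genes with DMSO relative to its mean, at 3106, 2229 and 3268, and had 1761, 1901 and 1849 with erlotinib (log2 change -0.62, SE 0.10, limma adjusted p = 1.9e-05). At the other end, the lowest tested members per kb with DMSO were MRPS18C (17.9) and MRPL48 (129).

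Both subunits took part. In the large subunit 46 of 49 tested genes fell and 1 rose, with a median log2 change of -0.77 and a range from -1.34 to 0.34. In the small subunit 20 of 24 fell and none rose, with a median of -0.68 and a range from -1.20 to 0.20. Grouped by that nomenclature, 38 of 42 tested genes named after a bacterial counterpart fell (median -0.81), and 28 of 31 named as mitochondria-specific fell (median -0.63). By the same rule, 35.4% of all genes tested were lower and 35.3% higher. Whether the medians of these groups differ was not tested.

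MRPL10 was the single member that rose. Its protein holds the stalk, and thus MRPL12, on the large subunit. Its signal was 1404, 1349 and 1436 with DMSO and 1781, 1760.2 and 1749.5 with erlotinib, so that every erlotinib value lay above every DMSO value. The rise was 1.26-fold, or 0.34 on the log2 scale (SE 0.074, limma adjusted p = 0.00038), where 36.7% of all genes tested had erlotinib values above DMSO values without overlap. MRPL10 lies on chromosome 17 (47823272 to 47831541, - strand).

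In 6 members the groups overlapped and the test was not passed. MRPL43, a large subunit protein classed as mitochondria-specific, had 1233, 1197 and 1328 with DMSO and 1297, 1269 and 1234 with erlotinib (log2 change 0.017, SE 0.079). MRPS14, a small subunit protein of the bacterial type, had 908, 906 and 868 against 952, 816 and 851 (log2 change -0.037, SE 0.089). MRPL55 had 483, 381 and 461 against 421, 423 and 417 (log2 change -0.064, SE 0.12). These standard errors leave room for small changes in either direction. MRPS25 had 1559.8, 1584 and 1616 against 1790.3, 1614 and 1775 (log2 change 0.12, SE 0.075, limma adjusted p = 0.16). MRPS21 had 1218, 1165 and 1303 against 1466, 1253 and 1298 (log2 change 0.12, SE 0.084, limma adjusted p = 0.20). With total counts as the scale in place of the deposited size factors, MRPL43, MRPS25 and MRPS21 passed the threshold as higher, with log2 changes of 0.20, 0.30 and 0.30. That scaling moved the median of all genes to 0.19.

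MRPS18A, MRPS18B and MRPS18C are paralogs, of which MRPS18A sits in the large subunit and the others in the small subunit. MRPS18C is named after the bacterial counterpart, and its relatives MRPS18A and MRPS18B are counted above as mitochondria-specific, as the nomenclature has them. MRPS18A had 648, 581 and 649.7 with DMSO and 517, 509.8 and 513 with erlotinib. It fell by 0.28 (SE 0.10, limma adjusted p = 0.014), the smallest fall among the 66 genes, and 60.6% of its exon bases are shared with exons of RSPH9. With total count scaling its change was -0.11 and no longer passed (limma adjusted p = 0.35). MRPS18C had few reads, with signals of 27.2, 25.1 and 31.0 against 24.0, 59.4 and 22.5, and library 5 alone was high. Its log2 change of 0.20 (SE 0.39) became -0.24 without that library, and 83.6% of its exon bases are shared with ABRAXAS1. MRPS18B had no read in any library.

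MRPS18B was 1 of 5 members below the limit for testing, all with nearly no reads. MRPL45, which in other cells anchors the ribosome to the inner membrane, had signals of 0, 1.86 and 0 with DMSO and 0 in each erlotinib library. MRPL23, which lies near the exit of the peptide tunnel, had 4.54, 0 and 0 with DMSO and 0, 1.98 and 5.62 with erlotinib. MRPS36 had a signal of 0.923 in library 4 and 0 in the others. MRPS24, a small subunit protein, had 6.81, 2.79 and 9.63 against 4.61, 12.9 and 8.42. The transcripts of MRPL23, MRPL45 and MRPS36 each have 1 further copy on alternate contigs of the genome, and that of MRPS18B has 6, whereas none of the 73 tested members has such a copy. Reads with more than 1 place in the genome were left out of the counts, so a signal near 0 need not give the level of these 4 genes, and the part of the copies was not tested. MRPS24 shares 90.9% of its exon bases with the readthrough gene URGCP-MRPS24, so reads there could fit either gene.

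Genes that work with the ribosome were examined by lists. The 5 measured mitoribosome proteins with other names all fell, with a median log2 change of -0.83, beside 35.4% lower over all genes tested. AURKAIP1, a small subunit protein, had 4293, 3340 and 3503 with DMSO and 2022, 2119 and 2031 with erlotinib (log2 change -0.84, SE 0.083, limma adjusted p = 1.3e-08). DAP3, a GTP-binding protein of the same subunit, had 1035, 991 and 902 against 519, 491 and 638 (log2 change -0.83, SE 0.11, limma adjusted p = 5.0e-07). Of the mitochondrial translation factors, 11 of 13 fell and 1 rose (median -0.60), beside 35.4% lower and 35.3% higher over all genes tested. GFM1, the elongation factor that moves the ribosome along the mRNA, fell by 1.21, from 2063, 2645 and 2216 to 1007, 974 and 997. MTRF1L, a release factor, fell by 0.80 at a lower level, with group means of 106 ± 13.4 and 60.7 ± 6.5 (SD, n = 3 each). The initiation factor MTIF3 rose by 0.37 (limma adjusted p = 0.0076), although not without DMSO library 3, where its log2 change was 0.27.

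Genes for assembly of the ribosome and modification of its rRNA moved in both directions. Of 24 tested, 16 fell (66.7%) and 4 rose (16.7%), with a median of -0.50, beside 35.4% lower and 35.3% higher over all genes tested. C1QBP, a matrix protein that supports ribosome assembly, fell by 1.32, from 6527, 6598 and 6499 to 2473, 2744 and 2641. MRM2, which methylates the 16S rRNA, fell by 1.19. NOA1, a GTPase needed for the small subunit, rose by 0.78, from 1261, 1265 and 1342 to 2301, 2175 and 2185. YBEY, an endoribonuclease, rose by 0.44, with 261, 282 and 259 against 394, 401 and 304. In each of these 4 genes the groups did not overlap.

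Among genes for charging mitochondrial tRNAs, which are the aminoacyl-tRNA synthetases and the 3 subunits of the GatCAB amidotransferase (QRSL1, GATB and GATC), 10 of 19 fell and 1 rose (median -0.34), beside 35.4% lower over all genes tested. MARS2, which loads methionine, fell by 1.77, from 1987, 2051 and 1899.8 with DMSO to 596, 563 and 574 with erlotinib. RARS2, the arginine enzyme, rose by 0.57 from a low level of 84.0 ± 10.8 to 125 ± 6.6 (SD, n = 3 each, limma adjusted p = 0.013), and this call was lost without DMSO library 3 (0.46) or without erlotinib library 4 (0.53).

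The genes for transcription and replication of mitochondrial DNA mostly fell, 10 of 13 with none rising (median -0.67). Among all genes tested, 35.4% were lower and 35.3% higher. TFAM, which packages mitochondrial DNA and starts its transcription, had 4340.2, 4863 and 4231 with DMSO and 1996, 2012 and 1832 with erlotinib (log2 change -1.20, SE 0.073, limma adjusted p = 6.7e-12). SSBP1, the single-strand binding protein, had far fewer reads, at 66.9, 146 and 88.8 against 48.0, 40.6 and 45.9, and fell by 1.08 (SE 0.27, limma adjusted p = 0.0016).

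The RNAs made from mitochondrial DNA were counted apart. Of the 13 mRNAs, 4 fell (30.8%), none rose, and the median log2 change was -0.090. The share of falls was near that over all genes tested, of which 35.4% were lower and 35.3% higher. MT-ND6, the complex I subunit on the light strand, fell by 0.70 (SE 0.086, limma adjusted p = 3.5e-07), from 57640.4, 42229 and 50472 to 30064, 32292 and 29443. MT-ND5 fell by 0.66 (SE 0.10), from 142739, 97870.3 and 108874 to 70225, 76442 and 71126. The use of strand in counting is not stated, so reads on MT-ND6 could also come from RNA of the other strand. These 2 falls therefore need not be independent. The 2 rRNAs were higher with erlotinib. MT-RNR1, the rRNA of the small subunit, had 62130.4, 45965 and 47038 against 75944, 80756.6 and 71444 (log2 change 0.57, SE 0.092, limma adjusted p = 1.3e-05). MT-RNR2, the rRNA of the large subunit, had 641059, 421731 and 456633 against 683558, 749517 and 627160 (log2 change 0.46, SE 0.12, limma adjusted p = 0.0024), and here the groups overlapped. The rRNA reads remained after selection of poly(A) RNA, so their level also depends on how much of each rRNA that step kept. The share of reads on mitochondrial DNA varied among the DMSO libraries, at 8.65%, 6.15% and 6.95%, beside 8.61%, 9.31% and 8.23% with erlotinib.

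Regulators of nuclear genes for mitochondria were read from the same fit. PPARGC1B, a coactivator of such genes, fell by 1.54 (SE 0.11, limma adjusted p = 8.0e-11), from 749, 793 and 837 to 277, 247 and 293. PPRC1, a coactivator of the same family that responds to growth signals, fell by 1.37 (SE 0.075, limma adjusted p = 1.1e-12), from 3243, 3209 and 3324 to 1236, 1179 and 1369. NRF1, a DNA-binding activator of nuclear genes for respiration, fell by 0.80 (SE 0.11, limma adjusted p = 1.7e-06), from 577, 557 and 562 to 330.4, 296 and 349. In these 3 genes the groups lay far apart. GABPB1, the partner subunit of the ETS factor GABPA, fell by 0.36, MYC, a growth regulator, by 0.29, and YY1, a zinc finger factor, by 0.25, each without overlap of the groups. With total count scaling the changes of GABPB1, MYC and YY1 were -0.18, -0.11 and -0.071 and did not pass. GABPA (0.056), ESRRA (0.080), a nuclear receptor, and MAX (0.023), the partner of MYC, did not pass the test in the deposited scaling. SP1 rose by 0.19 (SE 0.061, limma adjusted p = 0.0092). TFEB, a regulator of lysosomes, rose by 1.32 from a few reads (7.94, 11.1 and 16.1 against 43.4, 18.8 and 31.8). The TFEB call was lost without erlotinib library 4 (1.05) or without erlotinib library 6 (1.27). PPARGC1A, the relative of PPARGC1B, had a signal of 1.86 in DMSO library 2 and 0 elsewhere.

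**Figure D3:**
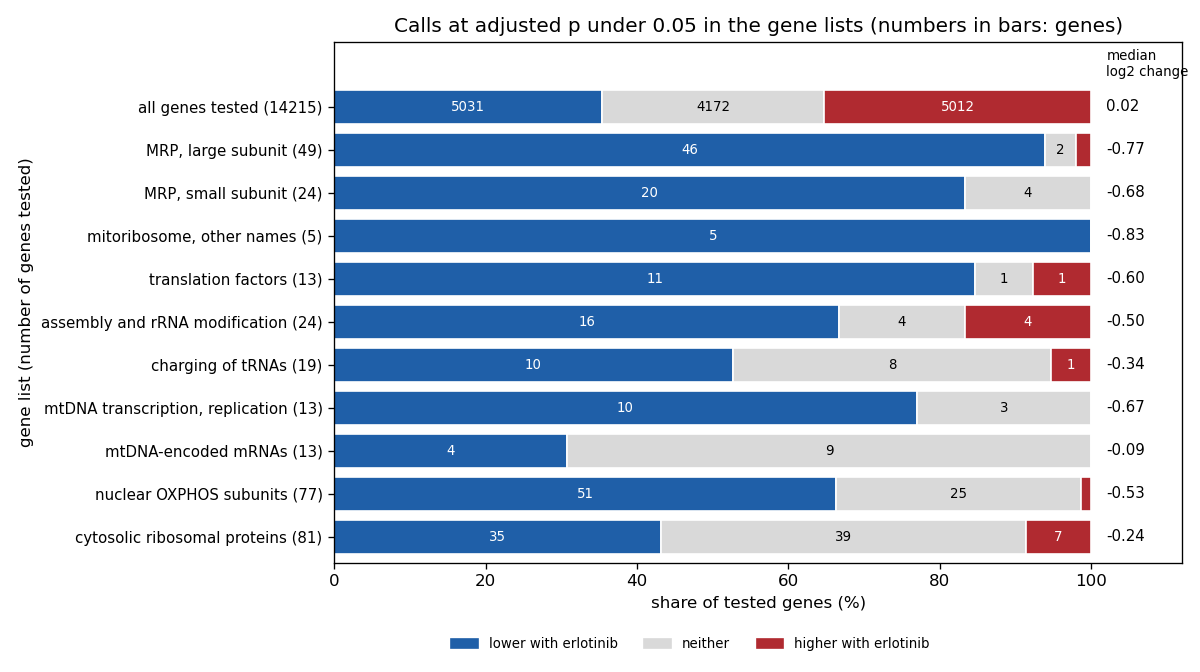
Share of tested genes in each list (x axis, %) that were lower (blue), higher (red) or neither (grey) with erlotinib at an adjusted p under 0.05, with the number of genes in the bars, the number tested beside each list's name (y axis) and the median log2 change at the right. The MRP genes of the large (46 of 49 lower) and small (20 of 24 lower) subunit are set beside all genes tested (5031 of 14215 lower) and the lists of related genes.

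The ribosome of the cytosol and the respiratory chain were read beside these genes. Of 81 tested genes for cytosolic ribosomal proteins, 35 fell (43.2%) and 7 rose, with a median log2 change of -0.24, and the share of falls was near the 42.2% among all genes whose mean signal reached 100. The list was taken by symbol, so it includes the like-named RPL7L1, RPL39L, RPL26L1 and RPL22L1, which fell, and RPS27L, which rose. RPL17 (-1.50) and RPS14 (-1.32) fell most and RPS29 (0.89) and RPL13A (0.65) rose most. Many cytosolic ribosomal protein genes have processed copies in the genome, which can take part of their reads, so these values are less certain. Of 77 tested nuclear genes for subunits of the respiratory chain and ATP synthase, 51 fell and 1 rose (median -0.53). Among all genes tested, 35.4% were lower and 35.3% higher. ATP5MC1 (-1.44) and NDUFS6 (-1.38) fell most, and ATP5MC2 (0.34) rose. The differences between these lists and the mitochondrial ribosomal protein genes are given as counts and medians and were not tested.

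Many mitochondrial ribosomal protein genes start close to a gene on the opposite strand. With starts taken from the main GENCODE transcript, 27 members had such a partner within 1000 bases, and in 23 pairs the partner was not itself a member and both genes were tested. In these pairs the member fell in 20, while the partner fell in 10, rose in 4 and did neither in 9, beside 35.4% lower and 35.3% higher over all genes tested. The median log2 change was -0.67 for the members and -0.24 for the partners. Where the member fell, its partner fell in 9, rose in 4 and did neither in 7.

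The partners with the largest changes went both ways. SKA3, a kinetochore protein gene that starts 106 bases from MRPL57, fell by 3.48, with 1232, 1256 and 1113 against 89.5, 129.7 and 103, while MRPL57 fell by 0.67. EME1, a DNA repair endonuclease gene 45 bases from MRPL27, fell by 2.23, and MTBP, a replication factor gene 269 bases from MRPL13, fell by 2.16. MRPL27 and MRPL13 fell by 0.86 and 0.94. KLC4, a kinesin light chain gene 197 bases from MRPL2, rose by 2.00, with 125, 91.0 and 101 against 414, 427 and 424, whereas MRPL2 fell by 0.42. MRPL2 lost its call with total count scaling (-0.24) or without DMSO library 1 (-0.29).

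In the pairs shown above by sequence, 1 gene moved and the other gave no call. The 45 bases between MRPL43 and TWNK separate a member with a log2 change of 0.017 from TWNK, the helicase of mitochondrial DNA, which fell by 0.99 (2437, 2313 and 2541 against 1166, 1309 and 1202). The 180 bases between MRPS12 and SARS2 separate a member that fell by 1.10 from the gene of the mitochondrial seryl-tRNA synthetase, which had 319, 255 and 303 against 299, 249 and 328. MRPL46 and MRPS11 are members that face each other at 320 bases, and they fell by 0.54 and 0.96. Reads of genes that share exon bases cannot be told apart without strand, whose use in counting is not stated. For genes on the same strand they cannot be told apart even with it. MRPL43 shares 13.1% of its exon bases with TWNK. MRPL20, which fell by 0.80, shares 19.7% of its exon bases with its antisense gene MRPL20-AS1, and MRPS34 shares 32.6% with EME2, which rose by 0.87. MRPL53, which fell by 0.37, shares 99.2% of its exon bases with CCDC142, so nearly all of its reads could fit either gene.

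**Figure D4:**
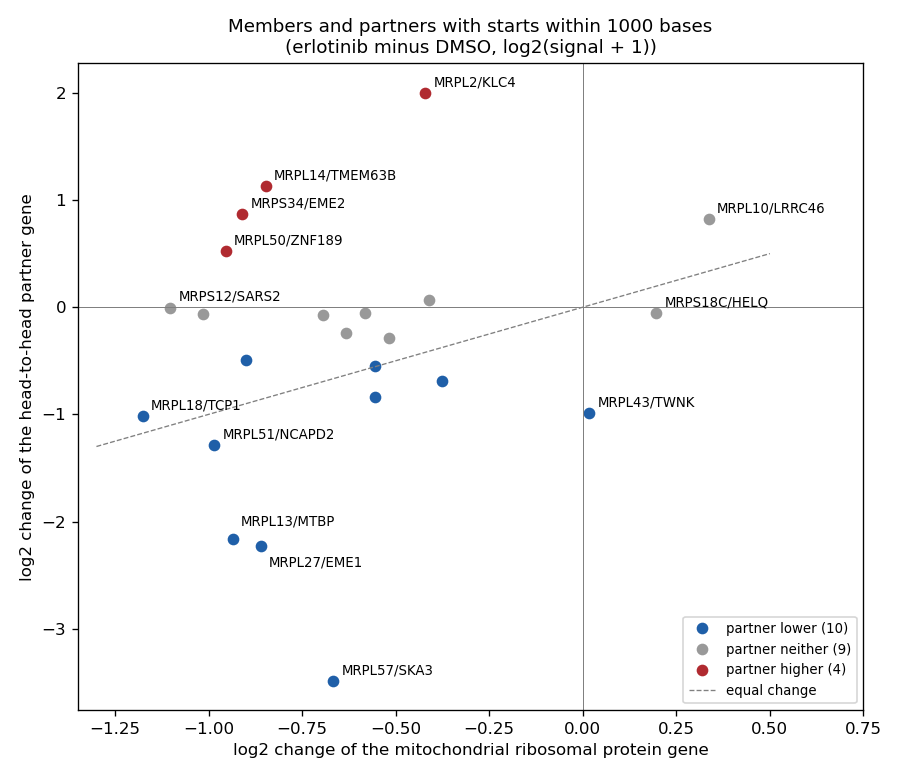
Log2 change (erlotinib minus DMSO) of 23 mitochondrial ribosomal protein genes (x axis) and of the gene that starts within 1000 bases on the other strand (y axis), coloured by the partner's call, with some of the pairs named. The members lie mostly left of 0 while partners spread from SKA3 at -3.48 to KLC4 at 2.00.

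Promoter letters were searched on both strands in the RefSeq windows from 250 bases before to 50 bases after each start, found for 70 of the 78 genes. The ETS motif CCGGAAG was in a window of 30 of the 70 genes (42.9%), beside 12.2% of all 27305 genes with a window and 21.7% of the 11130 tested genes with one. The YY1 motif AAGATGGCG was in 13 genes (18.6%), beside 2.14% of all and 4.49% of tested genes. The E-box CACGTG was in 10 genes (14.3%), beside 8.77% and 12.2%. The SP1 motif GGGCGG was in 43 genes (61.4%), beside 48.3% and 75.0%. The palindromic NRF1 motif was in 1 gene (1.43%), beside 1.52% and 2.67%, and TATAAA was in 4 genes (5.71%), beside 8.81% of tested genes. Only exact letters counted, an ETS and a YY1 match can share the letters AAG, and a match describes the sequence and not binding. Members with and without the ETS motif had median log2 changes of -0.71 (30 tested genes) and -0.73 (36), and those with and without the YY1 motif -0.72 (11) and -0.71 (55). The medians with and without the E-box were -0.82 (8) and -0.71 (58), and those with and without the SP1 motif -0.63 (40) and -0.80 (26). The NRF1 motif was in 1 tested gene (-0.92, beside -0.71 without) and TATAAA in 3 (-0.97, beside -0.71 without). None of these differences was tested.

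Markers were read to check the labelled cell type. The epithelial genes EPCAM (10104, 9813 and 9638 with DMSO, 9802, 9268 and 9386 with erlotinib) and CDH1 were high in all libraries, and NKX2-1, the lung lineage factor, rose by 1.53. NAPSA, a lung protease gene, rose by 1.92, whereas the keratins KRT18 and KRT8 fell by 1.25 and 0.83. SFTPB, the surfactant protein gene, was at most 12.2 in signal. Of 9 tested epithelial markers, 5 fell and 2 rose, beside 35.4% lower and 35.3% higher over all genes tested. The summed signal of the 10 listed genes was 368644, 340958 and 359747 with DMSO and 241518, 246115 and 253952 with erlotinib. Its largest parts were KRT7, with means of 123686 and 79896.7, and EGFR, the target of erlotinib, with 79644.8 and 45538.3. KRT7 fell by 0.63 and EGFR by 0.81, so the sum does not describe all of these markers. Of 12 markers of other cell types, 8 were below the limit for testing, including the leukocyte gene PTPRC and the stromal gene DCN, the latter at 0 in each DMSO library. The sum of the 12 was 2887, 2879.9 and 3289 with DMSO and 3534, 3798 and 3718 with erlotinib, nearly all of it from CD68, a lysosomal protein gene. Of the 4 tested, 3 rose, beside 35.3% higher over all genes tested. CD68 rose by 0.23, COL1A1 by 1.47 and VWF by 2.74, the last to a mean signal of 27.4. PECAM1 gave no call (log2 change -0.55, from a mean of 15.7 to 10.4). The untested COL1A2 had a signal of 0 in each erlotinib library. The part of these markers in the changes above was not tested.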

How the data were processed

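Per the study's methods and processing notes, paired-end reads were mapped by Bowtie2 (2.3.4) to GRCh38, and reads with a unique place were assigned to genes by featureCounts (1.6.3). The deposited signal values hold read numbers scaled by a size factor for each library: dividing by the step of its library made 100% of values whole within 0.01 read, although the table is described as raw counts. Bowtie2 does not split reads over introns. Libraries held 20858083, 24641819 and 21172884 reads on genes with DMSO and 21944007, 20760204 and 21678395 with erlotinib.

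All 6 libraries were fitted with limma (3.58.1, R 4.3.3, limma-trend) on log2(signal + 1), which understates changes of low genes, for the 14215 genes whose mean signal reached 10. Tests were two-sided, with Benjamini-Hochberg adjustment and a threshold of 0.05. On simulated data with 200 genes changed 2-fold among 14215, 168 were recovered with 3 false calls. There few genes changed, as many up as down, and the size factors were known. It therefore does not give the rate of false calls or the effect of scaling in these data. The recovered reads also went to edgeR (4.0.16) and DESeq2 (1.42.0). Within groups all pairs of libraries differed by more than sampling noise.

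Positions and promoters came from RefSeq (GRCh38.p14), with positions for 78 and promoters for 70 of 78 members. Lengths, starts and exons came from GENCODE release 44. Copies were sought with minimap2 (2.31-r1302) at 90% of the transcript and 97% identity. Genes named are the 8 largest falls and rises without overlap, the 3 highest per kb in each subunit, among tested members without a call the 3 with the smallest adjusted p and the 3 with the smallest change, all untested members, the MRPS18 paralogs, the 2 largest falls and rises in each list, all regulators, and the 4 largest changes among partners. A gene that this rule names is not reported here. TWNK, SARS2, MRPL46, MRPS11, MRPL20, genes named for shared exons (MRPL53 and CCDC142 among them) or a lost call, and the genes of the cytosolic ribosome, respiratory chain and marker lists beyond this rule were named after their values were seen. The members and lists were chosen with earlier results of these data known.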

Additional observations from a re-analysis of the deposited data

How the results depend on the processing

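The counts of mitochondrial ribosomal protein genes that fell (66) or rose (1) were 66 and 1 with edgeR and TMM factors, DESeq2, TMM factors in limma, a pseudocount of 10, no filter, or a minimum of 10 reads in every library, and 64 and 1 at an adjusted p under 0.01. With total count scaling, 59 fell and 4 rose, beside 27.8% lower and 43.3% higher over all genes tested. Their median log2 change was then -0.56 while that of all genes moved to 0.19, and the difference of the medians was -0.75 there and -0.76 with the deposited size factors. Without a filter the median, then also over members with few reads, was -0.71. Leaving out 1 library at a time gave 65 to 66 falls, 1 rise and medians from -0.75 to -0.73. The number of falls of at least 1 log2 unit (13) was 3 with total count scaling and 11 to 15 under the other alternatives. Of the 67 called genes, 60 kept their call under all 13 alternatives and none reversed. The 7 exceptions, MRPL2, MRPL54, MRPL38, MRPL40, MRPL53, MRPL44 and MRPS18A, lost it with total count scaling (log2 changes of -0.24, -0.23, -0.22, -0.20, -0.19, -0.16 and -0.11).

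Changes that did not pass with the deposited size factors reversed in sign in a few cases. With total count scaling MRPL55 was 0.12 and MRPS14 0.14. Leaving out 1 library at a time gave MRPL55 changes from -0.17 to 0.0042, the latter without DMSO replicate 1. MRPS14 ranged from -0.10 to 0.010 (the latter without erlotinib replicate 5), and MRPS18C from -0.24 (also without erlotinib replicate 5) to 0.44. MRPL43 ranged from -0.015 to 0.060, below 0 without DMSO replicate 2 (-0.015) and without erlotinib replicate 4 (-0.00033). GABPA ranged from -0.033 (without DMSO replicate 3) to 0.15, and MAX from -0.025 (without DMSO replicate 1) to 0.047. With total count scaling ESRRA (0.26), GABPA (0.24) and MAX (0.20) passed as higher. The cause was not tested.

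No paired analysis was possible because the erlotinib columns carry the numbers 4 to 6 and not those of the labels. MRPS18C and MRPL48 had few reads and larger standard errors, and the 5 untested genes had nearly none. The cause of their low reads was not tested.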
